A study of Mus musculus with 12 samples.

Results

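Fibroblast growth factor (FGF) signalling was followed in sorted hair follicle stem cells (HFSCs) of the mouse through 10 genes, chosen by name from the ligands (Fgf18, Fgf5, Fgf1, Fgf2, Fgf22), the receptors (Fgfr1, Fgfr2, Fgfr3) and the Sprouty feedback inhibitors (Spry1, Spry2). All 10 were found among the 21915 genes of the hair cycle table and among the 17885 genes of the Eed table. RNA-seq was performed on 12 libraries of HFSCs from the back skin of C57BL/6J mice, 3 for each of 4 groups. The sort kept CD34+ cells with high α6-integrin that were EpCAM+ and Sca1-. The hair cycle groups were wild type mice in anagen, the growth phase, at 28 to 30 days of age, and in telogen, the resting phase, at 50 to 52 days, so age and phase cannot be told apart. The other groups were controls, labelled wildtype, and mice labelled Eed -/-, both 70 days old. In the latter (K15-CrePGR; Eed fl/fl, here Eed iKO), topical RU-486 once a day for 7 days from day 50 activates a Cre recombinase that the K15 promoter drives in the bulge. Control mice were given the ethanol vehicle, so drug and deletion cannot be told apart. The aim was to delete Eed, a core subunit of Polycomb repressive complex 2 (PRC2), which places the repressive histone mark H3K27me3.

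FGF ligands are secreted proteins that bind receptor tyrosine kinases with the help of heparan sulfate, and the bound receptor activates the RAS-ERK cascade through adaptor proteins. ERK in turn switches on Sprouty genes, whose products dampen the same cascade. In hair follicles, FGF18 made in the bulge is known to hold stem cells at rest, FGF5 ends anagen, and FGFR2 is the main receptor of epithelial cells. Splice forms of the receptors decide which ligands they bind, and counts per gene do not resolve them.

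The promoters of Fgf18 and Fgfr2 are printed because they are far apart in their number of CG pairs, a feature of the promoters where PRC2 is known to gather, and because they belong to the ligand of stem cell rest and to the receptor that rose in anagen. Each is the stretch of 250 bases before the start held by RefSeq (GRCm38.p6), on the minus strand, with CG pairs in capitals. No base of either stretch lies in an annotated exon.

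Fgf18, chr11:33147401-33147650: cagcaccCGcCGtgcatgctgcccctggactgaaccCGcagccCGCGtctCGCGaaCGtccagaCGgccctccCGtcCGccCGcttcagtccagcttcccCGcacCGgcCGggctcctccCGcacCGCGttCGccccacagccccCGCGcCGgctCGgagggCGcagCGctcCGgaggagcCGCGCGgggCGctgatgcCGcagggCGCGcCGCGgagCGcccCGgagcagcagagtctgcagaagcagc

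Fgfr2, chr7:130266809-130267058: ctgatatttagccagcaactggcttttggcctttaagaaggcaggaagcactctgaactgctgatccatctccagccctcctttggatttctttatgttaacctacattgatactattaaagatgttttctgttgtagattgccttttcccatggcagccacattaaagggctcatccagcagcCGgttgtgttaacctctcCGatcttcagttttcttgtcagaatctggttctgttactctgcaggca

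The Fgf18 stretch held 37 CG pairs, with 97.8% of the 32851 mouse promoters of the same length holding fewer, and was 77.2% G and C. The Fgfr2 stretch held 2 CG pairs, with 18.8% of promoters holding fewer, and was 44.0% G and C. The letters GGGCGG, searched on both strands, occurred 1 time before Fgf18 and 0 times before Fgfr2, and 32.7% of all promoters held at least 1 match. Every other stretch found for the 10 genes held 15 or more CG pairs. Which start the cells use was not measured. In GENCODE vM21 (GRCm38), Fgf18 spans chr11:33117430-33147400, Fgfr1 chr8:25513654-25575718, Fgfr2 chr7:130162451-133123350 and Spry1 chr3:37639947-37644598. The Fgfr2 stretch thus lies inside the span of its gene, which has 17 annotated protein-coding transcripts.

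Markers of cell types were read first. All 12 HFSC markers had a value above 0 in every library. So did all 6 markers of differentiated epidermis, so such values do not give the purity of the sort. In the hair cycle table, telogen 1 stood apart, with a Krt15 count of 142406 against 344674 to 422433 in the other 5 libraries. The 5 proliferation markers summed to 613 to 804 in telogen and 17046 to 28320 in anagen, and the 5 melanocyte markers to 81.3 to 160 and 437 to 803. Most of the melanocyte sum was Dct, at 61.2 to 134 in telogen and 387 to 709 in anagen. Of the 5 melanocyte markers, 2 were higher in every anagen library than in telogen, and the others overlapped. In anagen, 3 of the 12 HFSC markers were higher in every library than in telogen and 3 were lower. Of 6 fibroblast markers, 3 were higher in every anagen library and 1 was lower. The 7 markers of matrix and transit amplifying cells summed to 891 to 989 in telogen and 551 to 769 in anagen. Of these 7, 2 were lower in every anagen library and 1 was higher. Of the genes whose proteins were used in the sort, Cd34 was lower in anagen (log2 fold change −1.21, limma adjusted p = 0.00382) and Itga6, the α6-integrin gene, was higher (0.97, adjusted p = 0.0144). In the Eed table, the proliferation markers summed to 10258 and 9898 in Eed iKO 1 and 2 and to 1066 to 3789 in the other 4 libraries. The matrix and transit amplifying markers summed to 7252 to 9654 in controls and 5396 to 6381 in Eed iKO. Of these 7 markers, 1 was lower in every Eed iKO library. The part of these differences in the FGF values was not tested. The Eed gene itself had a normalized count of 1095 ± 150 in controls and 1099 ± 230 in the libraries labelled Eed iKO (log2 fold change −0.01, limma adjusted p = 0.993). Counts per gene do not separate deleted exons from the rest, so the gene total does not check the deletion, and libraries are named by their labels throughout. The study describes the control and Eed iKO libraries as biological replicates from more than a single litter. The hair cycle libraries came from several animals per phase, and how these were divided over the libraries is not said. The p-values measure the spread between libraries.

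The hair cycle comparison asks which FGF genes differ between activated and resting stem cells. Fgfr1 and Fgf1 fell in anagen and Fgfr2 rose. Fgf18, Fgf2 and Spry2 were lower in every anagen library than in every telogen library without passing the test, and Spry1 had nearly equal means. Of the 10 genes, 8 passed the filter on low values and 3 of these had an adjusted p under 0.05 (limma), against 11.6% of the 13457 genes tested. By direction, 1 was higher in anagen (7.22% of all genes) and 2 were lower (4.35%). For 6 of the 8 genes the telogen and anagen libraries did not overlap, against 33.3% of all genes, and 5 of the 6 were lower in anagen, against 15.2%. The median log2 fold change of the 8 genes was −0.83, and that of all genes tested was 0.01. The genes were chosen with earlier results of these data known. These shares, and those of the Eed comparison below, thus describe the genes and do not test them as a set. The study's methods ask for a log2 change beyond 2 and a p-value under 0.05, read here as unadjusted, which 0 of the 8 genes met, against 5.1% of all genes.

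**Figure D1:**
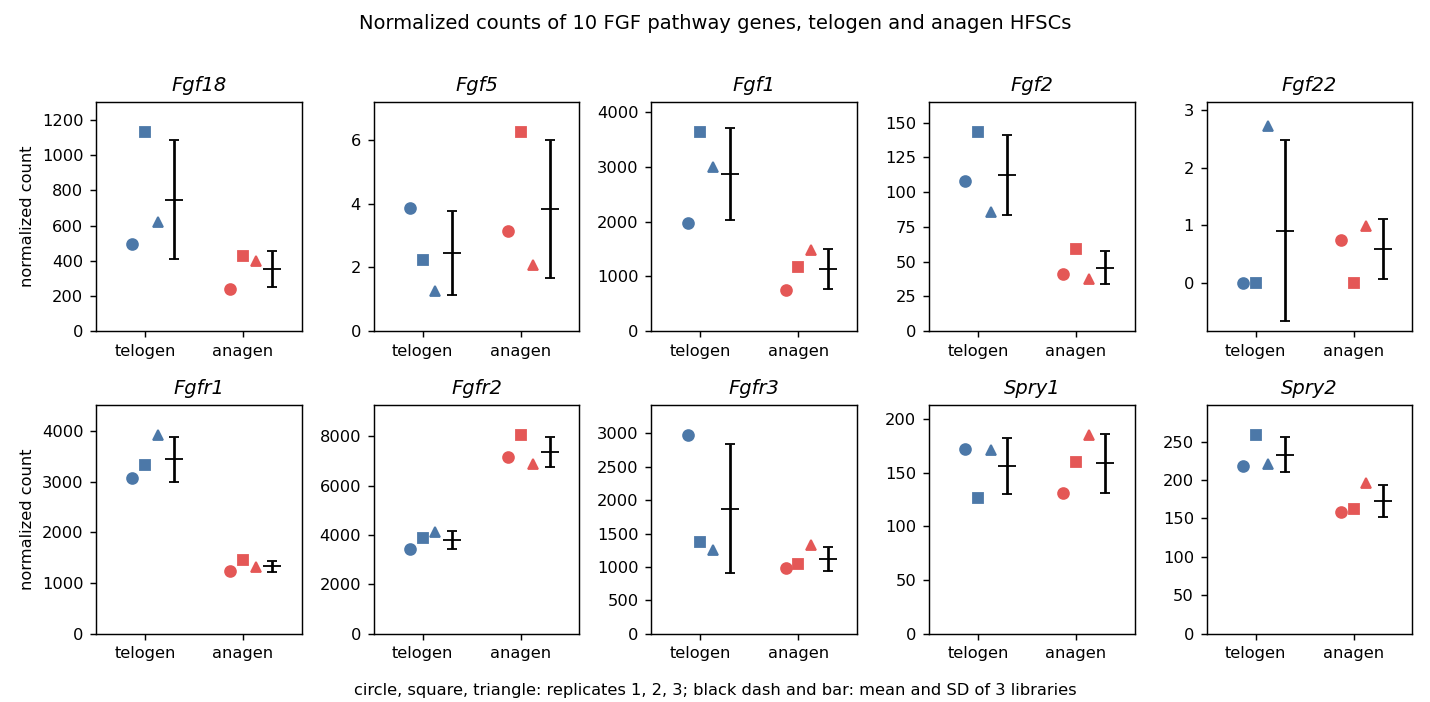
Normalized counts of the 10 genes in each telogen (blue) and anagen (red) library on linear axes, with the mean and SD of 3 libraries in black. Fgfr1 and Fgf1 sit lower in all 3 anagen libraries, Fgfr2 sits higher in all 3, and Fgf5 and Fgf22 stay at or under 6.25 in every library.

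Fgf18, the ligand known for keeping bulge cells at rest, had normalized counts of 493, 1133 and 620 in telogen 1 to 3 and 237, 426 and 402 in anagen 1 to 3. Every telogen library lay above every anagen library, with telogen 2 far above the rest. The log2 fold change was −1.03 ± 0.35 (SE, 95% interval −1.79 to −0.27), which did not pass the test (limma adjusted p = 0.081). Without telogen 1, the library with low Krt15, it was −1.28 with a limma adjusted p of 0.0369, without telogen 2 it was −0.69 (0.198) and without anagen 1 it was −0.76 (0.288). Over all alternatives the adjusted p ranged from 0.0369 to 0.288. FGF18 is known from the inner, keratin 6 positive bulge layer. The markers of that layer did not move together. Of 4 markers, Krt6a was lower in every anagen library, at 2306 to 2927 against 3135 to 4458, and Bmp6 was higher in every anagen library, at 347 to 665 against 122 to 293. The sum of the 4, most of it Krt6a, overlapped at 2926 to 3404 against 3347 to 4750. The part of this layer in the Fgf18 values was not tested. In bulk RNA, fewer cells of a type and less RNA per cell cannot be told apart.

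Fgf1, a ligand that binds all FGF receptors, had normalized counts of 1976, 3639 and 3007 in telogen and 749, 1181 and 1485 in anagen. The groups did not overlap, and anagen 1 was the lowest library. The anagen mean of 1138 ± 370 was 2.52-fold lower than the telogen mean of 2874 ± 839 (log2 fold change −1.35 ± 0.29, 95% interval −1.99 to −0.71, limma adjusted p = 0.0139). The call was lost without anagen 1 (−1.07, limma adjusted p = 0.0705) and without an intensity trend in the variances (adjusted p = 0.0847). The adjusted p ranged from 0.00428 to 0.0847 over all alternatives, and without telogen 1 the log2 fold change was −1.59.

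Fgf2, a ligand with high affinity for heparan sulfate, stood at 108, 143 and 86.1 in telogen and 40.9, 59.0 and 37.4 in anagen. The groups did not overlap, and the log2 fold change of −1.27 ± 0.43 (95% interval −2.23 to −0.32) had an adjusted p of 0.0834 (limma). Fgf2 shares 13.2% of its exon bases with the annotated genes Gm43439 and Nudt6, so its counts are uncertain. Fgf5, the signal that ends anagen, had counts of 1.27 to 3.87 in telogen and 2.08 to 6.25 in anagen. Fgf22 was listed at 0 in telogen 1, telogen 2 and anagen 2 and reached 2.73 in telogen 3. Neither Fgf5 nor Fgf22 passed the filter on low values, so neither was tested.

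Fgfr1, a receptor tyrosine kinase, had normalized counts of 3068, 3323 and 3928 in telogen and 1243, 1454 and 1309.5 in anagen. The lowest telogen library had more than 2-fold the count of the highest anagen library. The mean was 2.58-fold lower in anagen, at 1335 ± 108 against 3440 ± 442 (SD, n = 3 per group), with a log2 fold change of −1.36 ± 0.19 (95% interval −1.77 to −0.95). This was the smallest p of the 8 genes tested (limma adjusted p = 0.00113), at rank 166 of all genes. The adjusted p stayed under 0.05 in all 11 alternatives, from 0.00074 to 0.0234, and the log2 fold change without telogen 1 was −1.44.

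Fgfr2, the receptor best known from epithelial cells, moved the other way. Its normalized counts were 3417, 3890.5 and 4119 in telogen and 7152, 8058 and 6886 in anagen. All 3 anagen libraries were higher than all telogen libraries. The anagen mean of 7365 ± 615 was 1.93-fold the telogen mean of 3809 ± 358 (log2 fold change 0.95 ± 0.17, 95% interval 0.58 to 1.33, limma adjusted p = 0.00544). The log2 fold change without telogen 1 was 0.88 (limma adjusted p = 0.00621). Without an intensity trend the adjusted p was 0.0564, and the other alternatives lay between 0.00535 and 0.0454.

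Fgfr3, the third receptor, had counts of 2979, 1378 and 1261 in telogen and 980.0, 1050.4 and 1329.9 in anagen. The groups overlapped, and telogen 1 was more than 2-fold higher than any other library. Its log2 fold change of −0.64 ± 0.31 (95% interval −1.31 to 0.04, limma adjusted p = 0.205) became −0.25 without telogen 1. Fgfr3 shares 13.9% of its exon bases with the opposite-strand gene G630022F23Rik, and the counting is not stated to use strand. Its counts are thus uncertain in both comparisons.

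The receptors were set against each other per kilobase of their longest annotated transcript, since counts of genes of different length cannot be compared. Fgfr1 made up 28.9%, 35.0% and 38.4% of the 3 receptors in telogen and 11.5%, 12% and 12% in anagen. The Fgfr2 share was 37.7%, 47.8% and 47.0% in telogen and 77.7%, 77.7% and 73.6% in anagen. In anagen, then, the share of Fgfr1 was lower in every library than in telogen and that of Fgfr2 was higher in every library. Fgfr3 took the rest, at 14.6% to 33.4% in telogen and 10.3% to 14.4% in anagen. With the median transcript length, Fgfr2 made up 43.4% to 54.7% in telogen and 77.9% to 81.8% in anagen. The shares follow from the counts tested above and were not tested again.

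**Figure D2:**
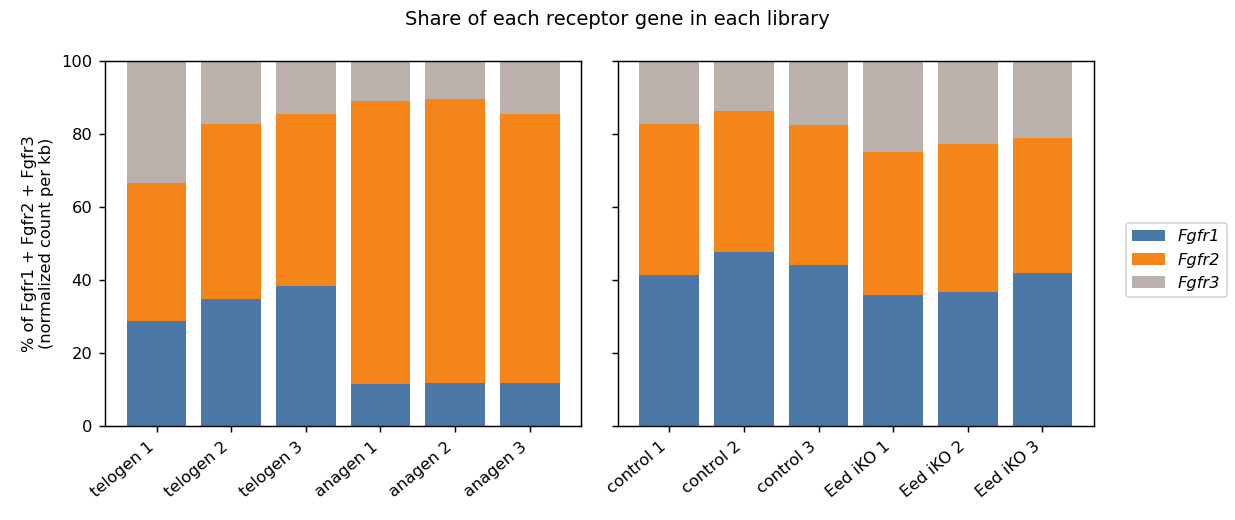
Share of Fgfr1 (blue), Fgfr2 (orange) and Fgfr3 (grey) in their sum, in percent of normalized counts per kilobase of the longest transcript, with 1 bar for each library. Fgfr2 takes 73.6% or more in the 3 anagen bars and 47.8% or less in the 3 telogen bars, and at the right Fgfr3 takes 21.0% to 24.9% in Eed iKO and 13.6% to 17.4% in control bars.

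Spry1 and Spry2 encode inhibitors that FGF signalling itself induces. Spry1 had counts of 172, 127 and 171 in telogen and 131, 160 and 186 in anagen. The groups overlapped, and the log2 fold change was 0.02 ± 0.33 (95% interval −0.71 to 0.75, limma adjusted p = 0.975), with a sign that turned without telogen 2 or without anagen 3. Spry1 shares 24.4% of its exon bases with the opposite-strand gene Gm42922, so its counts are uncertain in both comparisons. Spry2 had counts of 218, 259 and 221 in telogen and 159, 163 and 196 in anagen. Its groups did not overlap, yet the log2 fold change of −0.43 ± 0.30 (95% interval −1.08 to 0.22) did not pass the test (limma adjusted p = 0.374).

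The other genes of the pathway were read from 5 lists, and 9 of their 56 tested genes had an adjusted p under 0.05 (6 higher and 3 lower in anagen), against 11.6% of all genes. Without anagen 1, anagen 2 or anagen 3 the count was 4 each time. Among receptors, coreceptors and ligand carriers, 5 of 15 passed. The heparan sulfate proteoglycans Gpc4 and Gpc6 rose (log2 fold change 1.10 and 1.55, limma adjusted p = 0.00476 and 0.0413) and Sdc3 fell (−2.22, adjusted p = 0.0342). Sdc3 counts were low, at 154, 57.5 and 53.7 in telogen 1 to 3 and 11.1 to 22.8 in anagen. Telogen 1 was also the lowest library for Gpc6, at 319 against 984 and 1446 in telogen 2 and 3. The FGF receptor binding transmembrane protein Flrt1 rose, with 6.67 to 47.6 in telogen and 178 to 338 in anagen and a log2 fold change of 3.48 ± 0.64 (limma adjusted p = 0.00595). Its relative Flrt2 fell, with 3232 to 5320 in telogen and 1574 to 1918 in anagen (−1.29, limma adjusted p = 0.00368). In both cases every anagen library lay outside the telogen range.

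Among adaptors and the RAS-ERK cascade, 1 of 17 passed, the kinase gene Araf (−0.998, limma adjusted p = 0.0234). Among the other feedback inhibitors it was 1 of 9, Spred2, which encodes an inhibitor of RAS-ERK signalling (0.94, adjusted p = 0.0329). Among ERK-responsive genes, 2 of 11 passed, the cell cycle gene Ccnd1 (1.58, limma adjusted p = 0.00312) and the immediate early gene Ier2 (1.35, adjusted p = 0.0451). Ccnd1 is also a gene of proliferating cells, whose markers were higher in all anagen libraries. The usual readouts of FGF activity were not called. Etv5 stood at 102 to 191 in telogen and 239 to 319 in anagen (0.90, limma adjusted p = 0.110), Etv4 had a log2 fold change of −0.52 (adjusted p = 0.738), Dusp6 of 0.00 (0.995) and Spry4 of 1.35 (0.237). Of the 17 further genes with an FGF name, not all of them receptor ligands, 4 were tested and 0 passed with limma, with 1 at an unadjusted p under 0.05. The counts of 16 of the 17 stayed below 50 in every library, with Fgf11 the exception.

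**Figure D3:**
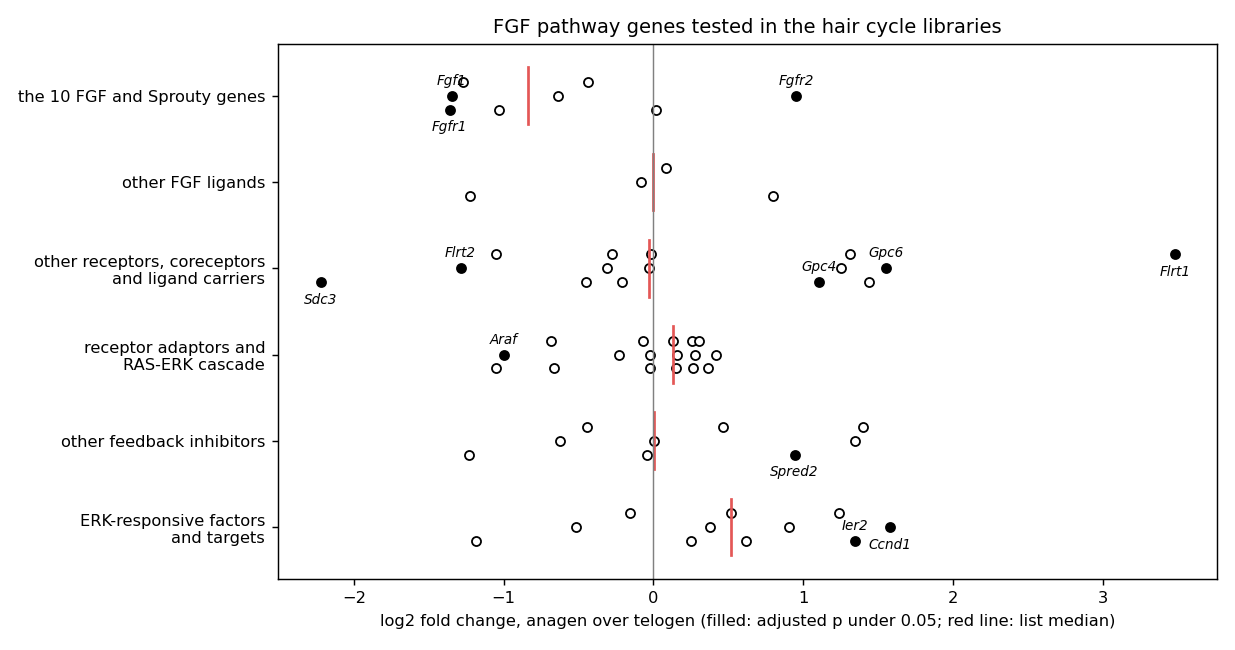
Log2 fold changes of anagen over telogen for each tested gene of the FGF pathway, in 6 rows by list, with filled circles for an adjusted p under 0.05 and a red line at the median of each list. The 8 tested FGF and Sprouty genes have a median of −0.83, and named circles mark the 12 genes that passed, 3 of them in the top row.

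Fgf1 was the ligand that passed in the hair cycle, and the genes most like it were sought over the 6 libraries among 13449 other genes, by the root mean square difference of log2 values centred on each gene's mean. The closest were Slc35b3 and Pdzrn4 (0.17 each) and Trmt44 (0.18). Their log2 fold changes were −1.21, −1.48 and −1.49, with limma adjusted p-values of 0.0533, 0.00304 and 0.0453. This is a description of likeness over 6 libraries.

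The comparison of the libraries labelled Eed iKO with controls asks which FGF genes differ where PRC2 was to be removed from resting cells. Of the 10 genes, 9 passed the filter and 0 had an adjusted p under 0.05 (limma), against 0.0267% of the 15008 genes tested. Fgf18 and Spry1 were lower in every Eed iKO library than in every control. With edgeR on the recovered reads 0 of the 9 were called, against 0.0333% of all genes, and with DESeq2 1, which was Fgf18, against 4.48%. At an unadjusted p under 0.05 there were 3 (Fgf18, Spry1 and Fgfr3), against 14.7% of all genes. For 2 of the 9 genes control and Eed iKO libraries did not overlap, both lower in Eed iKO, against 20.2% of all genes in either direction and 10% lower. The study's methods ask here for a log2 change beyond 1.5 and a p-value under 0.05, read as unadjusted, which 0 of the 9 genes met, against 1.75% of all genes. The threshold is also worded elsewhere as a fold change with an adjusted p. Read as a linear fold of 1.5 with an adjusted p under 0.05, it was passed by 0 of the 9 with limma and by 1, Fgf18, with DESeq2. The median log2 fold change of the 9 genes was −0.18, and that of all genes tested was 0.00.

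**Figure D4:**
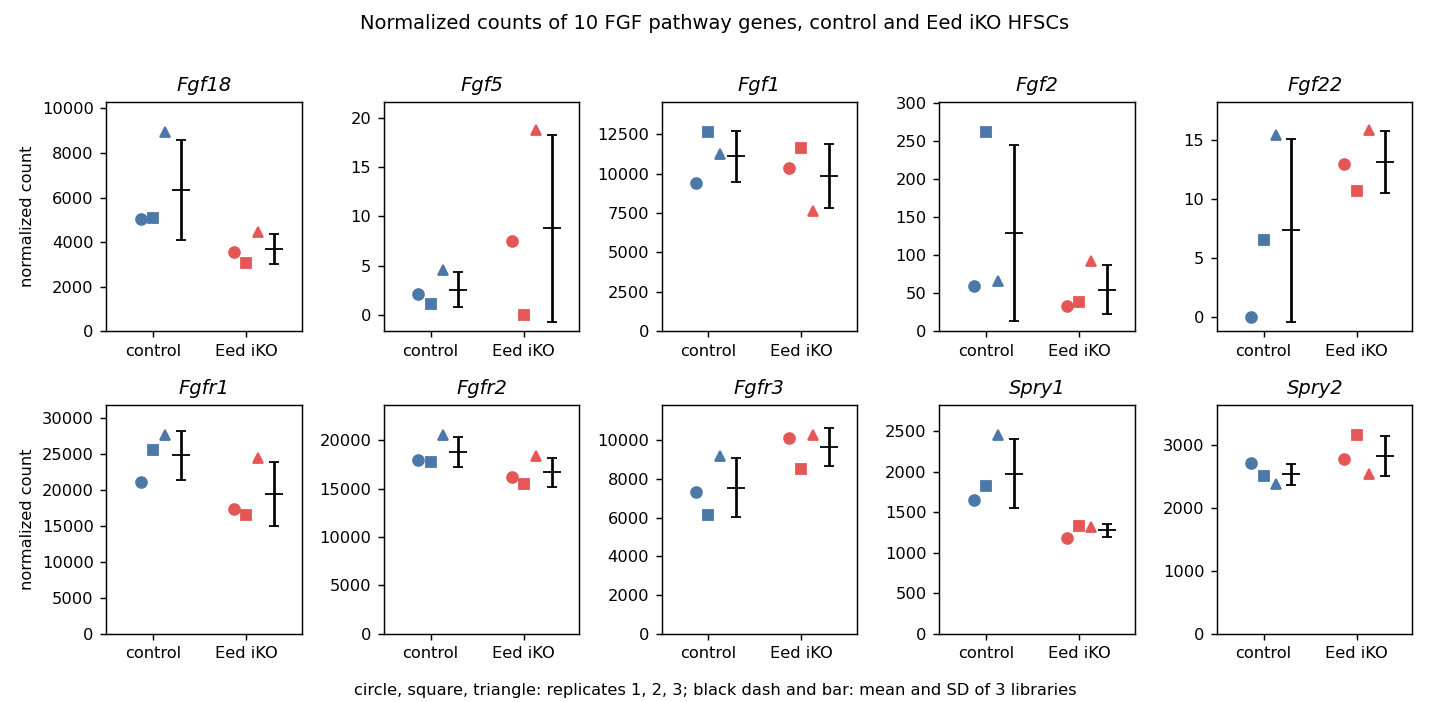
Normalized counts of the 10 genes in each control (blue) and Eed iKO (red) library on linear axes, with the mean and SD of 3 libraries in black. Fgf18 and Spry1 are the 2 genes whose groups do not overlap, and control 3 is the highest library for both.

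Fgf18 had normalized counts of 5020, 5091 and 8941 in controls and 3553, 3077 and 4442 in Eed iKO. The groups did not overlap, although Eed iKO 3 came near control 1. The mean was 3691 ± 693 against 6351 ± 2244 (SD, n = 3 per group), with a log2 fold change of −0.74 ± 0.23 (95% interval −1.25 to −0.24, limma adjusted p = 0.175). DESeq2 gave −0.78 with an adjusted p of 0.0348 and edgeR an adjusted p of 0.179, and over all alternatives the adjusted p ranged from 0.0164 to 0.926. Leaving out control 3 gave −0.47. Leaving out Eed iKO 1 and 2, the libraries with high proliferation markers, gave −0.46. Krt6a overlapped between the groups, at 20262 to 45484 in controls and 24401 to 43171 in Eed iKO.

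Spry1 had normalized counts of 1646, 1824 and 2457 in controls and 1183, 1324 and 1322 in Eed iKO. All 3 Eed iKO libraries lay close together and below the controls. The log2 fold change was −0.61 ± 0.19 (95% interval −1.04 to −0.19, limma adjusted p = 0.180). The adjusted p was 0.173 with edgeR and 0.0562 with DESeq2. Without control 3 the log2 fold change was −0.44, and without Eed iKO 1 and 2 it was −0.56. The exon bases that Spry1 shares with Gm42922 leave these counts uncertain. Spry2 stood at 2709, 2511 and 2388 in controls and 2787, 3167 and 2534 in Eed iKO, with overlapping groups and a log2 fold change of 0.15 ± 0.15 (95% interval −0.18 to 0.49, limma adjusted p = 0.686).

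Among the receptors, Fgfr3 had counts of 7349, 6126 and 9177 in controls and 10110.5, 8544 and 10296 in Eed iKO. Eed iKO 2 lay below control 3, so the groups overlapped, and the log2 fold change of 0.37 ± 0.17 (95% interval 0.00 to 0.74) had a limma adjusted p of 0.339. As a share of the 3 receptors per kilobase of the longest transcript, Fgfr3 stood at 17.2%, 13.6% and 17.4% in controls and 24.9%, 22.7% and 21.0% in Eed iKO, with no overlap. This share also depends on the Fgfr1 and Fgfr2 counts and was not tested. Fgfr1 had counts of 21072, 25523 and 27639 in controls and 17276, 16447 and 24440 in Eed iKO. Eed iKO 3 stood within the control range, and the log2 fold change of −0.37 ± 0.18 (limma adjusted p = 0.369) was −0.01 without Eed iKO 1 and 2. Fgfr2 had counts of 17977, 17776 and 20571 in controls and 16201, 15484.5 and 18376 in Eed iKO (−0.17 ± 0.13, 95% interval −0.47 to 0.13, limma adjusted p = 0.591). These groups overlapped too.

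Fgf1 had counts of 9417, 12649.7 and 11225 in controls and 10354, 11603 and 7608 in Eed iKO. The groups overlapped (log2 fold change −0.18 ± 0.18, 95% interval −0.58 to 0.21, limma adjusted p = 0.682). The order of Fgf1 and Fgf18 depended on the transcript length used. Per kilobase of the longest transcript, Fgf18 stood at 4623 to 8233 in controls and Fgf1 at 2366 to 3178, and per kilobase of the median transcript, Fgf18 stood at 4834 to 8610 and Fgf1 at 9955 to 13372.

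Fgf2 had counts of 59.0, 262 and 66.2 in controls and 33.3, 38.5 and 91.9 in Eed iKO. Control 2 was far above the rest, and the log2 fold change of −1.02 ± 0.70 had a limma adjusted p of 0.522. Without control 2 it was −0.34, and without Eed iKO 1 and 2 it was −0.13. Fgf22 rested on 0, 6 and 17 recovered reads in controls and 12, 8 and 16 in Eed iKO, and Fgf5 on 3, 1 and 5 and on 7, 0 and 19. A count of 0 allows up to 3 reads, so differences among the lowest of these libraries were not detectable at this depth. Reads also varied within groups, from 0 to 17 for Fgf22 in controls and from 0 to 19 for Fgf5 in Eed iKO. Fgf22 was tested (1.49 ± 1.17, limma adjusted p = 0.589) and Fgf5 did not pass the filter.

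Of the 58 further pathway genes tested in the Eed table, 0 had an adjusted p under 0.05 with limma, and 7 had an unadjusted p under 0.05, against 14.7% of all genes. Etv4, Etv5, Dusp6 and Spry4, the usual readouts of FGF activity, had log2 fold changes of 0.42, 0.19, 0.16 and 0.67 with limma adjusted p-values of 0.580, 0.790, 0.752 and 0.608. Among the 14 further genes with an FGF name in the table, 12 stayed below 50 in every library, with Fgf11 and Fgf9 the exceptions.

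**Figure D5:**
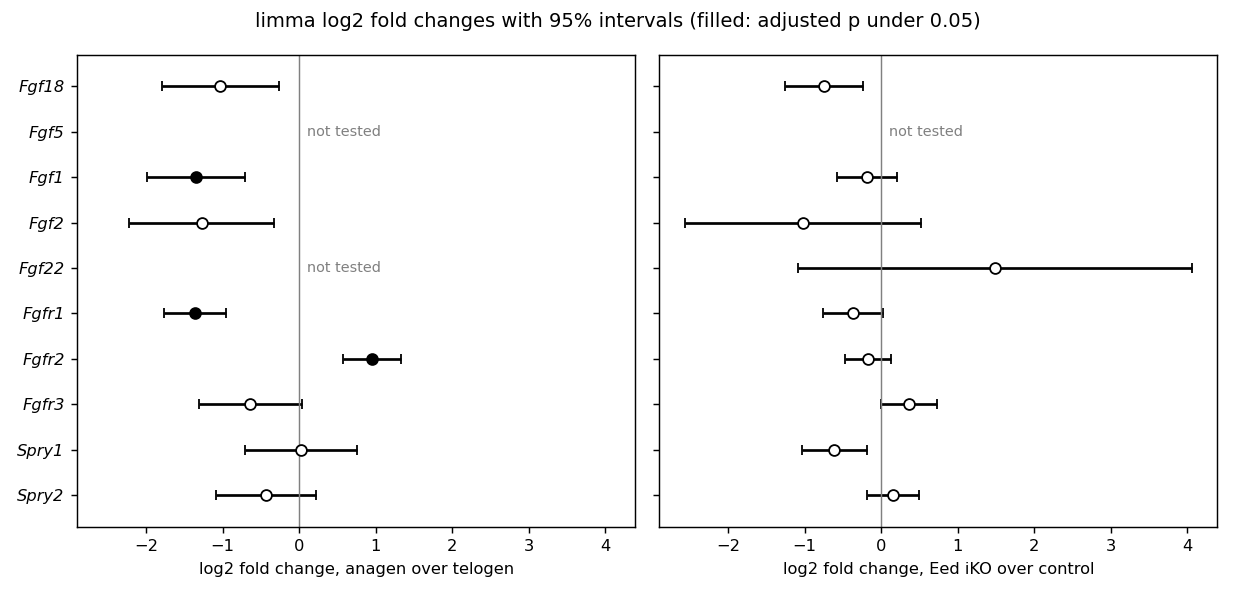
Log2 fold changes from limma with 95% intervals for the FGF and Sprouty genes, anagen over telogen at the left and Eed iKO over control at the right on the same scale, with filled circles for an adjusted p under 0.05. Fgfr1, Fgf1 and Fgfr2 are filled at the left, at −1.36, −1.35 and 0.95, and no circle is filled at the right.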

How the data were processed

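RNA from sorted HFSCs was amplified, made into libraries and sequenced in paired ends by the authors. Per the methods and the submitters' notes, reads were pseudoaligned with kallisto 0.42.5 to protein-coding transcripts of Gencode vM20 (mm10). As deposited, the signal is a normalized count per gene, scaled by the authors with DESeq2 size factors. Scaling was separate for the 2 tables, so no level was compared and no test made across them. Columns with the authors' own fold changes and p-values were not used.

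Fold changes were fitted with limma 3.58.1 (R 4.3.3) on log2(normalized count + 1) with an intensity trend, after filterByExpr with a count minimum of 10, and adjusted by Benjamini and Hochberg over all genes tested. On this scale the change of low genes is understated. The design named limma because both tables hold normalized values. In the Eed table, 100% of nonzero values were whole multiples of the smallest nonzero value of their library (tolerance 0.02). That step was taken as 1 read, which gave 33269583 to 57063586 reads per library. Both edgeR 4.0.16 and DESeq2 1.42.0 were run on these recovered reads. In the hair cycle table depth is unknown, since only 3.49% to 6.04% of values were whole multiples of a common step. Scripts were tested on simulated data.

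Named were the 10 genes, 4 readouts of FGF activity, pathway genes with an adjusted p under 0.05 and the 3 genes nearest to any called ligand. The genes and lists were chosen with earlier results of these data known. Krt15, Krt6a, Bmp6, Dct, Cd34, Itga6, Fgf11 and Fgf9 were named after their values were seen. Promoters were found for 8 of the 10 genes. For 6 of these, bases just after the RefSeq start were found in a GENCODE transcript of the gene. Genes of the lists that are outside a table were not analysed here.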

Additional observations from a re-analysis of the deposited data

How the results depend on the processing

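Results were recomputed without the filter on low values, with a pseudocount of 0.1, TMM scaling, no intensity trend, the thresholds of the methods, each library left out in turn, a replicate block and, in the Eed table, edgeR and DESeq2 on recovered reads. Leaving out Eed iKO 1 and 2 together, where Eed iKO 3 is assumed to vary like the controls, and a linear fold of 1.5 with an adjusted p were added after seeing the data. Among the log2 fold changes of the FGF and Sprouty genes, 205 alternative values kept direction and side of the threshold, 4 newly passed, 3 no longer passed and 2 turned. The sign of Spry1 in the hair cycle turned to −0.125 without telogen 2 and to −0.0992 without anagen 3, in a range from −0.125 to 0.151 with 1 library left out. The cause of these changes was not tested.

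In the hair cycle, the called FGF and Sprouty genes, other pathway genes and all genes numbered 1, 5 and 842 with no intensity trend, and 0, 2 and 686 at the thresholds of the methods. With 1 library left out they ranged from 2 to 4, from 4 to 9 and from 590 to 1534, the lowest of all genes without anagen 1. In the Eed table, DESeq2 called 1, 1 and 673, or 1, 1 and 582 with the fold of 1.5. All genes called there were 2 with no intensity trend, 263 at the thresholds of the methods, 1 without Eed iKO 1 and 2, and 1 to 188 with 1 library left out, the 188 without Eed iKO 3.

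The labels give groups the same replicate numbers without saying what a number shares. Deviations of same-numbered libraries correlated at 0.039, 0.0684 and 0.193 in the Eed table, against −0.145 to 0.0769 for different numbers. In the hair cycle table they correlated at −0.0348, −0.0711 and −0.0294, against −0.0167 to 0.0554 for different numbers. Replicates 3 of the Eed table had the highest value, so whether its numbers mark a shared source is not settled. The main fits did not pair libraries. With the replicate block, called FGF and Sprouty genes, other pathway genes and all genes numbered 1, 3 and 424 in the Eed table, where Fgf18 had a limma adjusted p of 0.0164, and 4, 8 and 1224 in the hair cycle, where Fgf18 had 0.0467. Low counts limit Fgf5, Fgf22 and Fgf2.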
